A study of Mus musculus with 8 samples.

Results

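The collagen chains are the genes whose name on the array has the form Col, a type number, a and a chain number. The array carried 44 of them on 69 probes, and 35 of the 44 were among the 25126 genes and unnamed transcripts tested. The brightest probe stood for each chain. The 44 chains were grouped as 11 fibrillar, 8 basement membrane, 9 fibril-associated and 16 other chains. Total RNA of whole kidneys came from CD-1 mice, an outbred stock, and was hybridised to 1-colour Agilent arrays. Tacrolimus, a calcineurin inhibitor given against transplant rejection and known for its renal toxicity, was given to the mice of 1 group at 1 mg/kg/day for 28 days. The mice of the control group received physiological serum. Each group had 4 arrays. The sources used here do not state age or sex, no genetic modification is named, and the labels number the replicates without naming animals, so that a p-value here reflects only how these samples spread, which may be technical. The question is which matrix collagens of the kidney differ under the drug.

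Collagens are triple-helical proteins of the extracellular matrix, built from 3 chains that are the same or different. Fibrillar collagens form the tension-bearing fibrils of the interstitium and are made by fibroblasts and pericytes, and their accumulation is a hallmark of interstitial fibrosis in the kidney. Type IV collagen forms the network of basement membranes under tubules, glomerular capillaries and vessels. Fibril-associated collagens sit on the surface of fibrils, and the remaining chains form microfilaments, short networks or transmembrane proteins.

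The slide held the controls in row 1 and the treated kidneys in row 2, and row and treatment cannot be told apart. Per array, 64.0% to 69.8% of spots other than controls exceeded background clearly and none was saturated. The local background averaged 21.8 to 22.1 intensity units in row 1 and 19.3 to 20.5 in row 2. Precision is limited by having 4 arrays a group. Markers of proximal tubule and of podocytes, the defining cells of nephron and glomerulus, were measured as 9 of 9 and 8 of 8 listed genes. Levels are given in log2 units above or below the 75th percentile of their array, and differences are tacrolimus minus control on the log2 scale.

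The fibrillar chains Col1a1, Col1a2, Col3a1, Col5a1 and Col5a2 and the fibril-associated chain Col14a1 lay above the controls on all 4 tacrolimus arrays, while most basement membrane chains differed little. Of the 44 chains, 35 were bright enough to be tested. Col1a2 and Col17a1 rose and none fell at an adjusted p under 0.05 (limma, Benjamini-Hochberg over all genes). Col17a1 entered the test only through the tacrolimus arrays, where it is high, and its call was lost with no filter on dim probes (adjusted p = 0.0668). Of all genes tested 0.227% were called, 0.187% as higher and 0.0398% as lower. At an unadjusted p under 0.05, 10 of the 35 chains lay higher and 4 lay lower, against 7.04% and 8.43% of all genes tested, 15.5% in either direction. The groups did not overlap in 10 chains that were higher and in 2 that were lower, against 4.35% and 5.76% of all genes, 10.1% in either direction. Both counts of higher chains include Col17a1, with the limit just given. Both counts of lower chains include Col4a6, whose other probe went the opposite way. The median difference of the 35 chains was 0.22 and that of all genes tested was -0.05, and 39.5% of all genes differed upwards against 22 of the 35 chains. The list was chosen with earlier results of these arrays known, so that these counts are a description of it. With fewer cells of a type and less RNA per cell indistinguishable in whole tissue, each level stands for the RNA of the whole kidney.

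**Figure D1:**
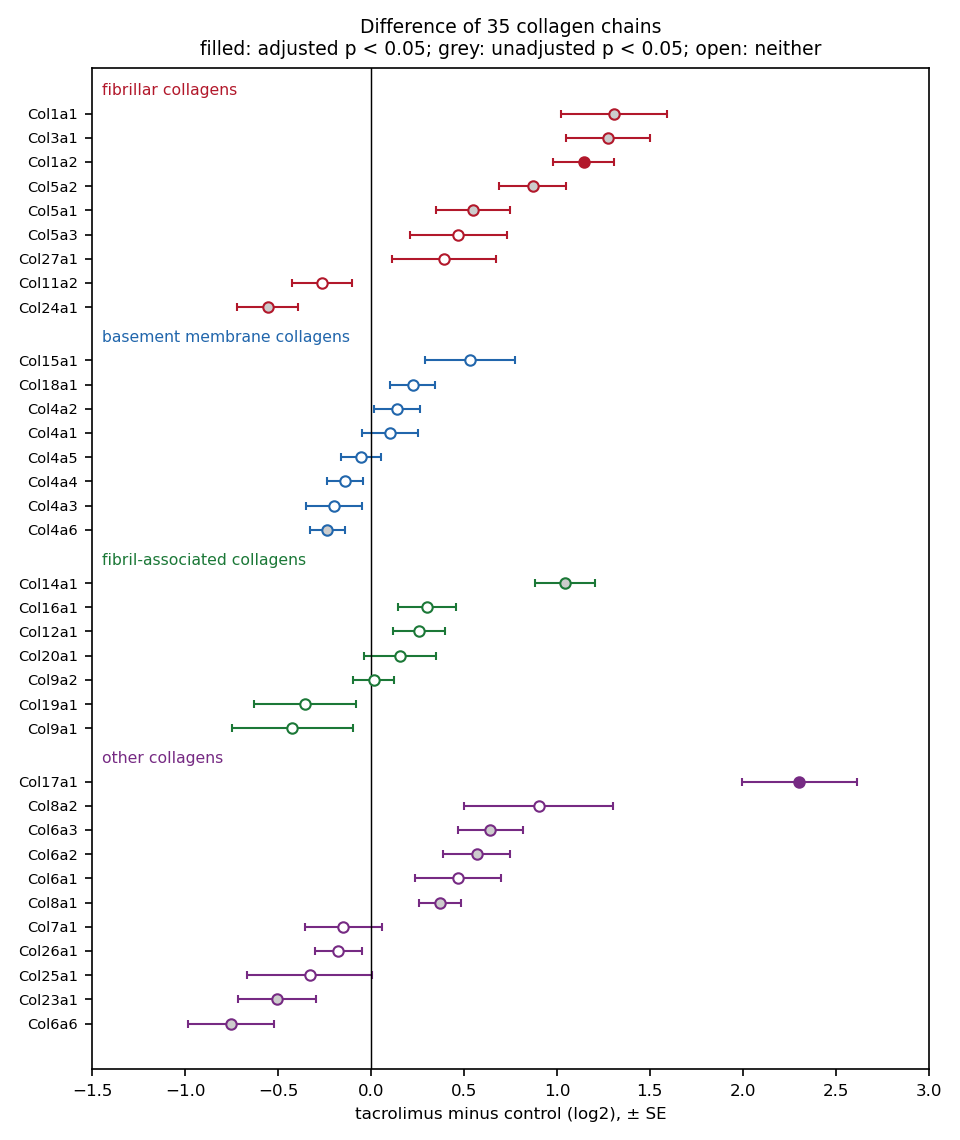
Difference of the 35 tested collagen chains between tacrolimus and control arrays (x axis, log2, 4 arrays a group), in 4 classes, with bars of 1 SE. Col1a2 (1.14) and Col17a1 are filled as called. The point of Col17a1 is the fitted value, and none of the controls had this chain clearly over background. With low control values raised, Col17a1 was 2.60-fold higher, which is not a minimum. The fibrillar chains Col1a1 and Col3a1 lie at 1.31 and 1.28, and the type IV chains lie between -0.24 and 0.14.

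The chains of the major interstitial fibrils were higher under tacrolimus. Col1a2 encodes the second chain of type I collagen, the main fibril-forming collagen. Its levels were 3.02, 3.06, 2.90 and 3.19 on the control arrays in replicate order and 4.20, 4.62, 3.83 and 4.10 on the tacrolimus arrays. The groups were apart by more than the spread within the controls, and tacrolimus replicate 2 was the highest. Col1a2 rose by 1.14 ± 0.16 (SE, n = 4 per group), which is 2.21-fold (adjusted p = 0.0462, limma). Its call was close to the threshold. It was lost with the median of each array as the scale (adjusted p = 0.0550), with quantile normalization (0.0564), when dim probes were kept (0.0770) and with the replicate number as a block (0.0568). Arrays of the same number lay in the same column of the slide. Without a single array the difference stayed between 1.00 and 1.26, and it was called without tacrolimus replicate 3 (adjusted p = 0.0421). It was not called without control replicates 1 to 4 (adjusted p = 0.0920, 0.0949, 0.131 and 0.109) or tacrolimus replicates 1, 2 and 4 (0.0958, 0.0583 and 0.0730).

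Col1a1 encodes the partner chain of type I collagen and Col3a1 the chain of type III collagen, which is laid down with it in interstitial tissue. Col1a1 was at 0.94, 0.53, 0.46 and 0.43 on the control arrays and at 2.15, 2.60, 1.20 and 1.64 on the tacrolimus arrays. The tacrolimus arrays spread more than the controls, with an SD of 0.61 against 0.24, and did not overlap them. Col1a1 differed by 1.31 ± 0.28 (unadjusted p = 0.00155, adjusted p = 0.0948, limma), 2.47-fold. Col3a1 was at 1.05, 1.09, 0.46 and 0.64 on the control arrays and at 2.18, 2.57, 1.60 and 1.99 on the tacrolimus arrays. It differed by 1.28 ± 0.23 (unadjusted p = 0.000405, adjusted p = 0.0584, limma), 2.42-fold, again with no overlap. Neither chain passed the threshold over all genes.

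Promoter sequence is shown for the called chains Col1a2 and Col17a1 and for Col3a1, as the 250 bases before the start of the gene in RefSeq (GRCm38.p6), 5′ to 3′ on the gene's strand. Capitals mark 3 motifs searched on both strands: CCAAT for the box of that name, GGGCGG for the GC box and TATAAA for the TATA box. No motif overlaps another in these windows.
Col1a2, chr6:4505368-4505617, plus strand: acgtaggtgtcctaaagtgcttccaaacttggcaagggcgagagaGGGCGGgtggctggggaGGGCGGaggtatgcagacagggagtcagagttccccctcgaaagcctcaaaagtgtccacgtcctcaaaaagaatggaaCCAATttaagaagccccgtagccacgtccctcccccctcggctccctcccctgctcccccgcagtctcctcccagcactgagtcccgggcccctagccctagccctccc
Col3a1, chr1:45311288-45311537, plus strand: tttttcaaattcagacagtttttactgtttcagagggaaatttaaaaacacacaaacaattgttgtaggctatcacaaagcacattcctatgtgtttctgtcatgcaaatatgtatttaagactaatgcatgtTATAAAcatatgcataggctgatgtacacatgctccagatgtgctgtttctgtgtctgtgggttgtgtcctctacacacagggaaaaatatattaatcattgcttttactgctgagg
Col17a1, chr19:47692043-47692292, minus strand: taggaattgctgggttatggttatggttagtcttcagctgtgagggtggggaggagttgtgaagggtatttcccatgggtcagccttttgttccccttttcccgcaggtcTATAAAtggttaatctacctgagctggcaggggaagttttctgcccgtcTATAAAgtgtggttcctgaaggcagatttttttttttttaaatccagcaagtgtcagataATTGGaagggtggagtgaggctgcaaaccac
The window of Col1a2 held CCAAT 109 bases before the start and GGGCGG at 205 and 188 bases before it. That of Col3a1 held TATAAA at 117 bases and neither of the other motifs, and that of Col17a1 held CCAAT at 31 bases and TATAAA at 140 and 91 bases. Among all 32851 promoter windows of this length in the table, 33.8% held CCAAT, 32.7% GGGCGG and 12.4% TATAAA. The table holds windows of 35 of the 44 chains, of which 13 held CCAAT, 21 GGGCGG and 5 TATAAA in at least 1 window. A match is a description of the letters and no evidence of binding.

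Type V collagen starts fibrils and regulates their diameter within type I fibrils. Col5a2 was at -4.57, -5.15, -5.14 and -4.94 on the control arrays and at -4.40, -4.02, -3.72 and -4.19 on the tacrolimus arrays, and its highest tacrolimus array was replicate 3. It differed by 0.87 ± 0.18 (unadjusted p = 0.00117, adjusted p = 0.0838, limma). Over all settings described below, the difference of Col5a2 ran from 0.355 to 1.111. Col5a1 was at -1.55, -1.68, -1.47 and -1.49 on the control arrays and at -0.77, -0.51, -1.31 and -1.40 on the tacrolimus arrays. Replicates 3 and 4 of tacrolimus lay just above the controls, and the difference was 0.55 ± 0.20 (unadjusted p = 0.0234, limma). The third chain of the type, Col5a3, differed by 0.47 ± 0.26 with overlapping groups (unadjusted p = 0.106). Of the other fibrillar chains, Col27a1 differed by 0.39 ± 0.28 and Col11a2, a chain of cartilage collagen XI, by -0.26 ± 0.16 (unadjusted p = 0.200 and 0.140).

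Col24a1, the chain of a fibrillar collagen known from developing bone, went the other way. It was at -3.15, -3.41, -3.14 and -3.54 on the control arrays and at -3.78, -3.72, -3.67 and -4.29 on the tacrolimus arrays. All 4 tacrolimus arrays were lower, and the difference was -0.56 ± 0.16 (unadjusted p = 0.00863, adjusted p = 0.182, limma). Over all settings it ran from -0.634 to -0.203. At an unadjusted p under 0.05, 5 of the 9 tested fibrillar chains lay higher and Col24a1 alone lower, against 7.04% and 8.43% of all genes tested. For so few chains the count of lower ones is near its share. The median difference of the 9 chains was 0.55, against -0.05 for all genes tested.

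**Figure D2:**
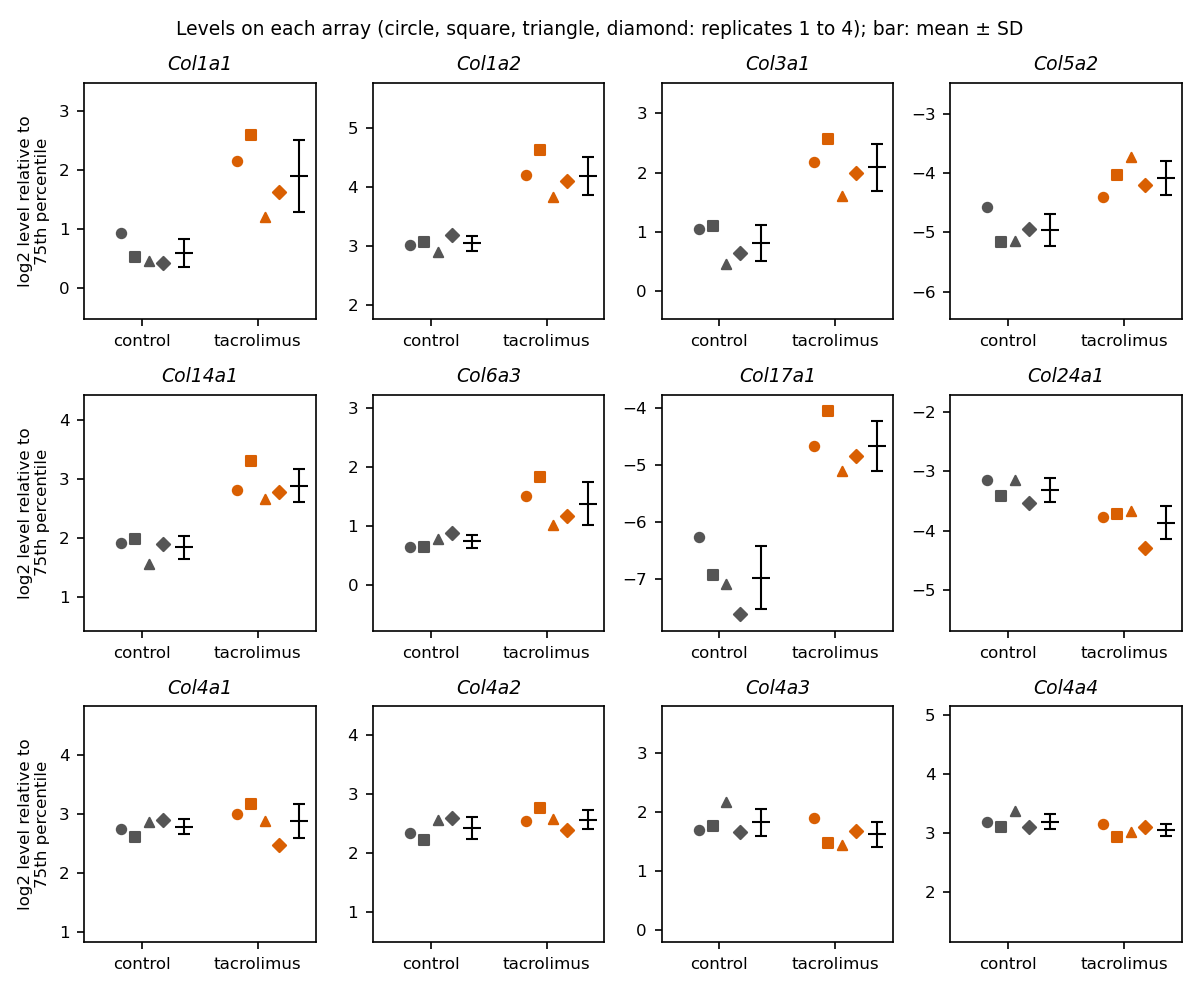
Level of 12 collagen chains (y axis, log2 relative to the 75th percentile of the array) on the 4 control and 4 tacrolimus arrays, with the mean and SD beside each group. The tacrolimus arrays lie above the controls in Col1a1, Col1a2, Col3a1, Col5a2, Col14a1, Col6a3 and Col17a1 and below them in Col24a1, and the groups overlap in the type IV chains Col4a1 to Col4a4.

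Among the fibril-associated chains Col14a1 stood apart from the other 6 that were tested. It encodes collagen XIV, which binds to the surface of type I fibrils. Col14a1 was at 1.93, 1.99, 1.56 and 1.91 on the control arrays and at 2.81, 3.30, 2.67 and 2.78 on the tacrolimus arrays, which left a clear gap. The difference was 1.04 ± 0.16 (unadjusted p = 0.000157, adjusted p = 0.0552, limma), 2.06-fold, just short of the threshold. A further probe of Col14a1 differed by 0.92 (unadjusted p = 0.000295, limma over all probes). The related chains Col16a1 and Col12a1 differed by 0.30 ± 0.16 and 0.26 ± 0.14 with overlapping groups (unadjusted p = 0.0862 and 0.103), and a further probe of Col16a1 by 0.41 (unadjusted p = 0.0243, limma over all probes). Col20a1, Col9a2, Col19a1 and Col9a1 differed by 0.16, 0.02, -0.35 and -0.42, all within overlapping groups (unadjusted p from 0.227 to 0.893). The median of the 7 tested chains was 0.16.

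The chains of the basement membrane showed smaller differences than Col1a2. At its brightest probe no chain of the 8 was higher at an unadjusted p under 0.05, against 7.04% of all genes tested. For so few chains this count is near that share, and further probes of Col4a6 and Col15a1 did pass. Col4a1 and Col4a2 form the network found in all basement membranes of the kidney. Col4a1 was at 2.75, 2.61, 2.86 and 2.89 on the control arrays and at 3.00, 3.16, 2.88 and 2.48 on the tacrolimus arrays. Col4a2 was at 2.33, 2.21, 2.56 and 2.59 on the control arrays and at 2.54, 2.76, 2.57 and 2.38 on the tacrolimus arrays. In both chains tacrolimus replicate 2 was the highest and replicate 4 the lowest of its group, and the groups overlapped. The differences were 0.10 ± 0.15 for Col4a1 (95% interval of the fit -0.24 to 0.45) and 0.14 ± 0.12 for Col4a2 (-0.14 to 0.42).

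Col4a3, Col4a4 and Col4a5 form the mature network of the glomerular basement membrane, which fails in Alport syndrome. Col4a3 was at 1.70, 1.76, 2.17 and 1.67 on the control arrays and at 1.89, 1.48, 1.44 and 1.68 on the tacrolimus arrays. Col4a4 was at 3.18, 3.09, 3.37 and 3.10 on the control arrays and at 3.15, 2.93, 3.01 and 3.09 on the tacrolimus arrays. For both, control replicate 3 was the highest array and the groups overlapped. Col4a5 was at 1.21, 0.98, 1.10 and 0.92 on the control arrays and at 1.06, 1.16, 0.87 and 0.90 on the tacrolimus arrays. The differences were -0.20 ± 0.15 (95% interval -0.54 to 0.14) for Col4a3, -0.14 ± 0.10 (-0.36 to 0.08) for Col4a4 and -0.05 ± 0.11 (-0.30 to 0.19) for Col4a5. When the adipocyte marker level entered the fit as a covariate, Col4a5 differed by 0.05, so that its direction is not settled. The upper bounds of these 5 intervals lay below the difference of Col1a2. That the chains are equal in both groups is not shown.

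Col4a6, a type IV chain of smooth muscle and of some tubular basement membranes, gave opposite readings from its 2 probes. The brighter probe, at chrX:137601433-137601491 on mm9 per the array annotation, differed by -0.24 ± 0.09 (unadjusted p = 0.0342, limma) with no overlap. The other, at chrX:137599990-137600049, differed by 0.57 (unadjusted p = 0.00791, limma over all probes), so that no direction is given for Col4a6. Col18a1, which encodes a vascular and tubular basement membrane proteoglycan, differed by 0.22 ± 0.12 (unadjusted p = 0.104) and by 0.13 at a further probe. Col15a1, a related chain, differed by 0.53 ± 0.24 (unadjusted p = 0.0585). It differed by 0.60 at a neighbouring probe (unadjusted p = 0.0386, limma over all probes) and by -0.02 at a probe elsewhere in the gene. The median of the 8 basement membrane chains was 0.02.

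Col17a1 was well above background on the tacrolimus arrays alone. It encodes a transmembrane collagen of hemidesmosomes, the junctions that anchor epithelial cells such as skin and urothelium to their basement membrane. Col17a1 was at -6.26, -6.92, -7.09 and -7.61 on the control arrays, none of which had it well above background, and at -4.67, -4.06, -5.10 and -4.83 on the tacrolimus arrays, all of which did. The groups were far apart (adjusted p = 0.0404, limma, means -6.97 and -4.67). With lower control values raised to the lowest level well above background on their array, Col17a1 was 2.60-fold higher. That level is no strict limit of detection, so that 2.60-fold is not a minimum. With normexp background correction the fitted difference was 0.47 (adjusted p = 0.0524), so that its size depends on how the background is treated. Without a single array it was called without control replicate 1 (adjusted p = 0.0313, fitted difference 2.54). It was not called without control replicates 2, 3 and 4 (adjusted p = 0.0936, 0.123 and 0.0987) or tacrolimus replicates 1 to 4 (0.0933, 0.0731, 0.0615 and 0.0658). Markers of urothelium, which also holds hemidesmosomes, deviated from the control mean by 1.42, -0.54, -0.31 and 2.53 on tacrolimus replicates 1 to 4, with 8 of 9 listed genes measured. None of the 8 passed an unadjusted p of 0.05 (limma), their median was 0.86, and the leading ones, Upk3a of the urothelial plaque and the basal keratin Krt5, differed by 1.77 ± 1.09 and 1.02 ± 0.64. Their summed linear level was 10.7 to 11.4 on the control and 9.89 to 17.2 on the tacrolimus arrays, and without the brightest, Trp63, 0.556 to 0.679 and 0.495 to 5.25. Their part in the level of Col17a1 was not tested.

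Type VI collagen forms beaded microfilaments around cells and fibrils. Col6a3 was at 0.65, 0.65, 0.78 and 0.89 on the control arrays and at 1.51, 1.83, 1.02 and 1.18 on the tacrolimus arrays. It did not overlap between groups and differed by 0.64 ± 0.17 (unadjusted p = 0.00570, adjusted p = 0.155, limma). Col6a2 was at -2.73, -2.52, -2.29 and -2.28 on the control arrays and at -1.90, -1.42, -2.14 and -2.09 on the tacrolimus arrays. It differed by 0.57 ± 0.18 (unadjusted p = 0.0128, limma) and by 0.86 at a further probe. The third chain of the classical trimer, Col6a1, differed by 0.47 ± 0.23 with overlapping groups (unadjusted p = 0.0769). All 3 chains were highest on tacrolimus replicate 2.

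Col6a6, a later-found chain related to Col6a3, was lower rather than higher. It was at -2.44, -2.55, -1.75 and -1.82 on the control arrays and at -2.96, -3.28, -2.52 and -2.82 on the tacrolimus arrays, where replicate 3 reached into the control range. The difference was -0.76 ± 0.23 (unadjusted p = 0.0107, adjusted p = 0.198, limma), and a further probe gave -1.24. Col23a1, a transmembrane collagen, differed by -0.51 ± 0.21 with overlapping groups (unadjusted p = 0.0407) and by -0.36 at a further probe. Col8a1, a short-chain collagen of vascular walls, was at -2.79, -2.46, -2.60 and -2.57 on the control arrays and at -2.35, -2.05, -2.14 and -2.39 on the tacrolimus arrays. It differed by 0.37 ± 0.11 (unadjusted p = 0.0108, adjusted p = 0.198, limma) without overlap. Its partner Col8a2 differed by 0.90 ± 0.40 at a probe that was well above background on 2 of the 4 control arrays, and by -0.10 at a further probe. Col7a1 of anchoring fibrils, Col25a1 and Col26a1 differed by -0.15, -0.33 and -0.18 (unadjusted p from 0.200 to 0.496). In this class 4 of the 11 tested chains, Col17a1 among them, lay higher and 2 lay lower (unadjusted p under 0.05). The shares of all genes tested were 7.04% and 8.43%, and for so few chains the count of lower ones is near its share. The median difference was 0.37, or 0.11 over the chains well above background on all 8 arrays.

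The tacrolimus arrays differed among themselves in the same order for many chains. Of the 10 chains that were higher at an unadjusted p under 0.05, 9 were highest on tacrolimus replicate 2 and 7 were lowest on tacrolimus replicate 3. Over the 9 fibrillar chains the mean deviation from the control mean was 0.60, 0.91, 0.42 and 0.38 for the tacrolimus arrays in replicate order, against 0.25, -0.09, -0.16 and 0.00 for the controls. Over the 8 basement membrane chains it was 0.09, 0.18, -0.03 and -0.05 on the tacrolimus arrays and between -0.08 and 0.07 on the controls.

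**Figure D3:**
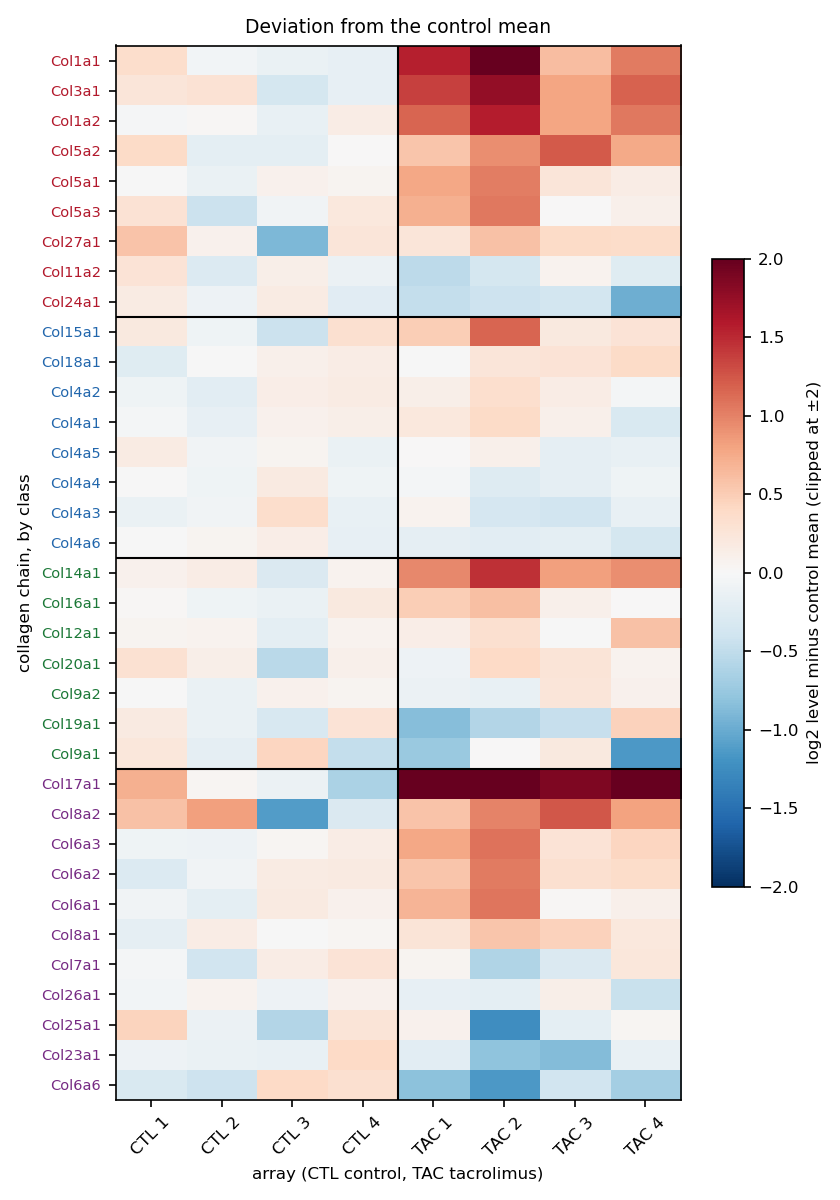
Deviation of 35 collagen chains (rows, by class) from their control mean on each of the 8 arrays (columns), in log2 units from blue (lower) to red (higher). Red fills the tacrolimus columns for Col1a1, Col3a1, Col1a2, Col5a2, Col14a1 and Col17a1, with replicate 2 the strongest in 9 of the 10 chains that were higher at an unadjusted p under 0.05.

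Chains that assemble together or lie in the same tissue were compared with each other in 9 pairs, as the difference of 2 chains on each array. No pair passed the test (exact two-sided permutation test over 70 assignments, unadjusted p from 0.286 to 0.914, where 0.0286 is the smallest possible, and adjusted p from 0.661 to 0.914 over the 9 pairs). For the type I chains, the difference of Col1a1 minus that of Col1a2 was 0.16 (95% interval -0.34 to 0.67), and for Col1a1 minus Col3a1 it was 0.03 (-0.37 to 0.43). Within type IV, Col4a1 minus Col4a2 gave -0.04 (-0.25 to 0.16) and Col4a3 minus Col4a4 gave -0.06 (-0.28 to 0.16). Between the 2 type IV networks, Col4a1 minus Col4a3 gave 0.30 (-0.25 to 0.85). Col6a2 minus Col6a3 gave -0.07 (-0.28 to 0.13), Col6a1 minus Col6a2 gave -0.10 (-0.42 to 0.22) and Col5a1 minus Col5a2 gave -0.32 (-1.11 to 0.47). The interval was widest for the dim pair of type VIII, at -0.53 (-1.65 to 0.59). The width of these intervals does not show that paired chains moved alike.

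Several chain genes are neighbours in the genome. In the RefSeq table of GRCm38.p6, Col3a1 and Col5a2 are adjacent protein-coding genes on chromosome 1, and they differed by 1.28 and 0.87. Col6a2 and Col6a1 are adjacent on chromosome 10 and differed by 0.57 and 0.47. The type IV genes lie in adjacent pairs, with differences of 0.10 and 0.14 for Col4a1 and Col4a2 on chromosome 8 and of -0.14 and -0.20 for Col4a4 and Col4a3 on chromosome 1. Col4a1 and Col4a2 start 21 bases apart on opposite strands in that table. Col4a6 and Col4a5 on chromosome X start 1343 bases apart on opposite strands and differed by -0.24, at the brighter probe of Col4a6, and by -0.05. The partner chains of type I collagen lie on chromosomes 11 and 6.

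Genes that fold, process, break down or bind collagen gave a mixed picture, and none passed the threshold over all genes (limma). At an unadjusted p under 0.05, 7.04% of all genes tested lay higher and 8.43% lower, the shares to set beside the counts of these lists. Of 30 tested genes for collagen folding, modification and processing, 6 lay higher and 1 lay lower (unadjusted p under 0.05), and the median was 0.01. The higher ones included Adamts2, the protease that removes the amino propeptide of fibrillar procollagens (0.79 ± 0.15, adjusted p = 0.0725). The lysyl oxidase family, which cross-links collagen, was represented by Loxl2 (0.68 ± 0.14, adjusted p = 0.0805) and Loxl1 (0.60 ± 0.20). The collagen prolyl isomerase Fkbp10 differed by 0.41 ± 0.13. Of the genes acting in the endoplasmic reticulum, Serpinh1, the collagen chaperone HSP47, differed by 0.02 ± 0.14, the prolyl hydroxylase subunits P4ha1 by -0.14 ± 0.18 and P4hb by -0.11 ± 0.08. These 3 were chosen after their values were seen and do not stand for the other genes of that group.

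Among 13 tested genes for collagen breakdown and its inhibitors, 6 passed an unadjusted p of 0.05, all of them higher (7.04% of all genes), with a median of 0.42. Timp1, an inhibitor of matrix metalloproteinases, differed by 1.97 ± 0.33 (adjusted p = 0.0553) and Mmp14, a membrane-bound collagenase, by 0.80 ± 0.13 (adjusted p = 0.0553, limma). Mmp2 and Timp2 differed by 0.63 ± 0.20 and 0.42 ± 0.13. Of 8 collagen receptors 3 were higher, namely the fibrillar collagen receptor Ddr2 (0.56 ± 0.13), the inhibitory leukocyte receptor Lair1 (0.53 ± 0.13) and the integrin chain Itga2 (0.79 ± 0.20, with 1 of 4 control arrays well above background). The fourth by p, the integrin chain Itga1, differed by -0.35 ± 0.15. Of 9 small proteoglycans that bind fibrils 4 were higher, with a median of 0.44. These were Ogn (0.74 ± 0.13, adjusted p = 0.0587), decorin, Dcn (0.81 ± 0.15, adjusted p = 0.0622), lumican, Lum (0.97 ± 0.35) and biglycan, Bgn (0.44 ± 0.18). Of 16 partners of type IV collagen in basement membranes 5 were higher and none lower, with a median of 0.23. Nidogen, Nid1, differed by 0.60 ± 0.14, the laminin chains Lamb3 and Lama2 by 0.89 ± 0.22 and 0.66 ± 0.19, and agrin, Agrn, by 0.31 ± 0.10.

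**Figure D4:**
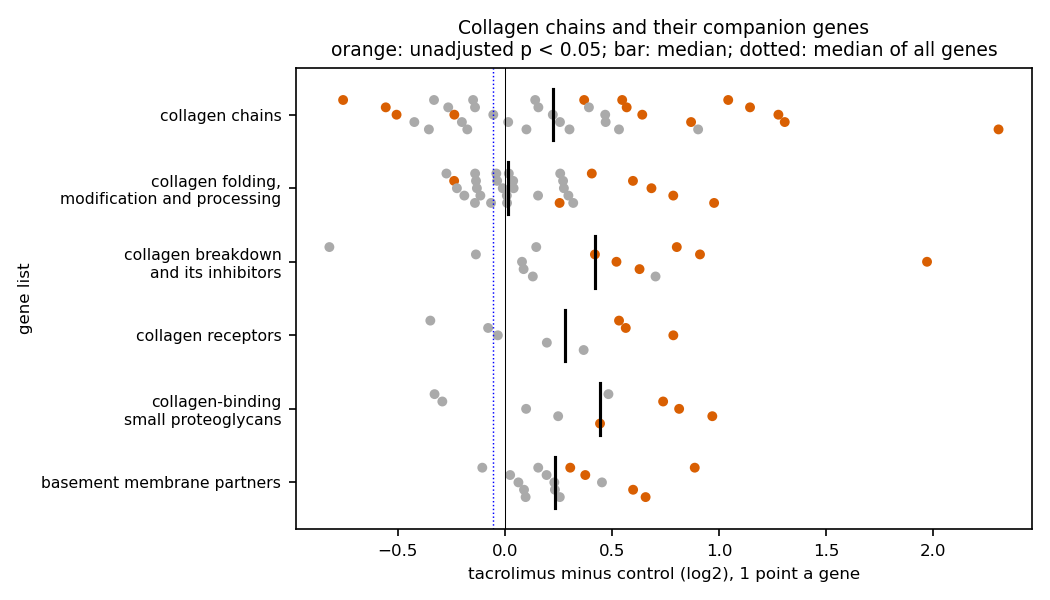
Differences of the 35 collagen chains and of 5 lists of companion genes (x axis, log2, 1 point a gene), with the median of each list as a bar and genes at an unadjusted p under 0.05 in orange. The medians run from 0.01 for folding and processing to 0.44 for small proteoglycans, and the median of all genes tested is -0.05.

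Markers of fibroblasts, smooth muscle and macrophages were higher on the tacrolimus arrays at unadjusted p-values, and none passed the threshold over all genes (limma). At an unadjusted p under 0.05, 7.04% of all genes tested lay higher and 8.43% lower, the shares to set beside these marker counts. Of 11 fibroblast markers 7 were higher and none lower at that threshold, with a median of 0.56. Their summed linear level was 18.0 to 21.5 on the control and 22.0 to 29.6 on the tacrolimus arrays. Pdgfra, a receptor of interstitial fibroblasts, differed by 0.92 ± 0.15 (adjusted p = 0.0553), Fap by 0.66 ± 0.12 and Scara5 by 0.51 ± 0.11. Of 8 myofibroblast and smooth muscle markers 4 were higher, among them Postn (1.42 ± 0.35), Myl9 (0.40 ± 0.14) and Des (0.37 ± 0.13), and their summed level was 33.5 to 43.1 and 41.9 to 55.5. On tacrolimus replicates 1 to 4 the mean deviation was 0.55, 0.67, 0.41 and 0.59 for fibroblast and 0.75, 0.35, 0.31 and 1.58 for myofibroblast markers. Acta2, the smooth muscle actin of myofibroblasts, named here after its value was seen, differed by 0.27 ± 0.19 (unadjusted p = 0.198). Of 9 measured macrophage markers, out of 10 listed, 7 were higher and 1 lower, led by Mrc1 (1.88 ± 0.31), Itgam (-0.44 ± 0.08) and C1qa (1.32 ± 0.24). Their summed level was 71.2 to 78.4 and 65.6 to 77.6, and without the brightest, Itgam, 30.1 to 37.9 and 37.3 to 48.1. Their mean deviations on tacrolimus replicates 1 to 4 were 1.16, 1.44, 0.82 and 0.62. The part of these cells in the collagen levels was not tested.

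Markers of adipocytes differed too. Of 10 measured adipocyte markers, out of 12 listed, 6 were higher at an unadjusted p under 0.05, against 7.04% of all genes tested. They were led by Retn (3.11 ± 0.87), Plin1 and Cidec (3.42 ± 0.97). Plin1 was 3.55-fold higher with low control values raised as for Col17a1, which is not a minimum. No control array had Plin1 well above background, and 1 of 4 had Adipoq. The summed level was 109 to 141 on the control and 142 to 186 on the tacrolimus arrays, and without the brightest, Pck1, which proximal tubules also express, 11.9 to 16.2 and 12.7 to 57.3. Mean deviations were -0.32, 1.30, -0.54 and -0.44 on the control and 1.83, 1.42, 1.40 and 4.32 on the tacrolimus arrays. The fibrillar mean was 0.42 on tacrolimus replicate 3, where Col1a1, Col1a2 and Col3a1 were lowest among the tacrolimus arrays. It was 0.38 on tacrolimus replicate 4 and -0.09 on control replicate 2, the arrays of their groups highest in fat markers. Without these 2 arrays Col1a2, Col1a1, Col3a1 and Col14a1 differed by 1.18, 1.37, 1.40 and 1.13, and no chain was called (limma), with 11 higher and 4 lower among the 2764 genes that passed an unadjusted p of 0.05. On the arrays left, the mean level of 5 adipocyte markers was -6.80 to -6.21 for control and -3.17 to -2.23 for tacrolimus. Fat level and treatment cannot be told apart there. With that level as a covariate on all arrays, the same 4 chains differed by 1.21, 1.49, 1.11 and 1.04. No gene was called, while 2186 genes passed an unadjusted p of 0.05, among them 14 chains, all higher. Only control replicate 2, at -3.09, reached the tacrolimus range of that level, so that the covariate largely follows treatment. Under this covariate Col4a1 and Col4a2 differed by 0.51 and 0.46.

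Markers of endothelium, podocytes, tubules and collecting duct had smaller median differences. The medians were -0.07 for 8 endothelial, -0.13 for 8 podocyte, -0.09 for 9 proximal tubule and 0.07 for 9 distal nephron and collecting duct markers. At an unadjusted p under 0.05 no endothelial marker passed, 1 podocyte marker, Plce1 (-0.41 ± 0.15), and 1 proximal tubule marker, Aqp1 (-0.23 ± 0.09), were lower, and 1 distal marker, Calb1 (1.24 ± 0.20), was higher. For lists of 8 and 9 genes these counts are near the shares of all genes tested, 7.04% higher and 8.43% lower.

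**Figure D5:**
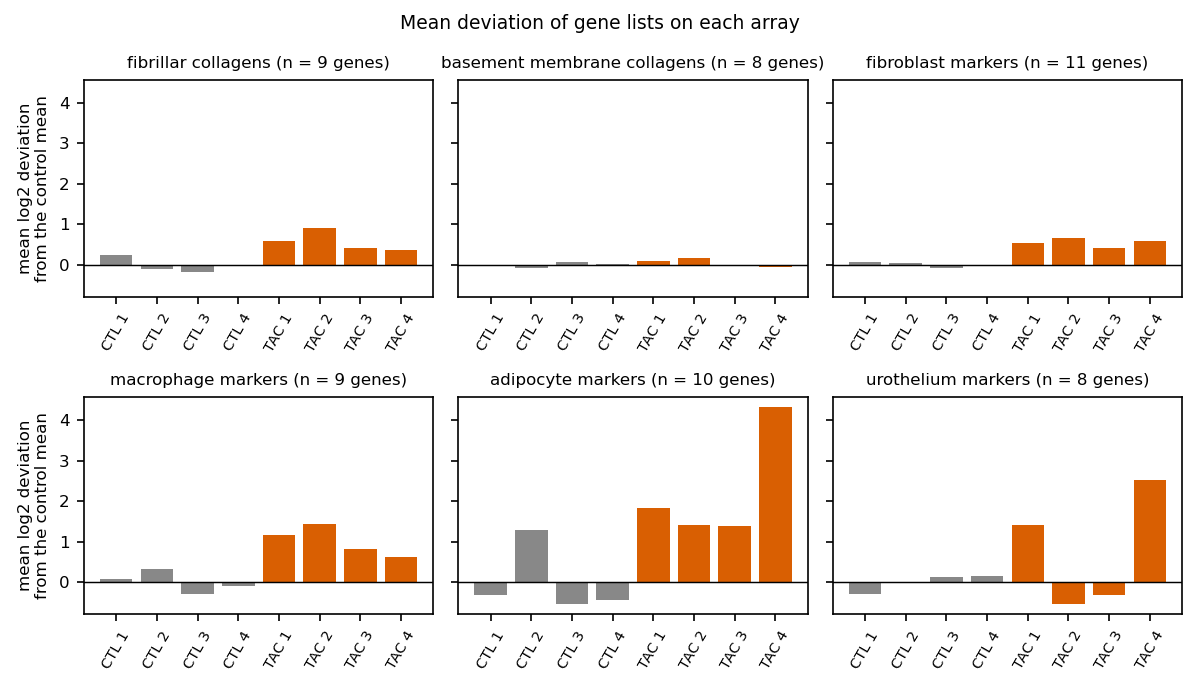
Mean deviation from the control mean (y axis, log2) of 6 gene lists on each array, with control arrays in grey and tacrolimus arrays in orange. Fibrillar collagens, fibroblast and macrophage markers are higher on all 4 tacrolimus arrays, adipocyte markers peak on tacrolimus replicate 4 at 4.32, and urothelium markers are high on tacrolimus replicates 1 and 4 only.

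The remaining 9 chains were not tested, being well above background on fewer than 4 arrays. Col2a1, Col11a1, Col9a3, Col22a1, Col10a1, Col28a1, Col6a4 and Col6a5 were not well above background on any array at their brightest probe, and Col13a1 was on 1 control array. They include the cartilage chains of types II and X. Of the 35 tested chains, 31 were well above background on all 8 arrays. A total of 13 chains had further tested probes, and 12 of the 15 further probes had the sign of the brighter probe, the exceptions being those of Col4a6, Col8a2 and Col15a1. On mm9, per the array annotation, the probe of Col1a2 lies at chr6:4490619-4490678, that of Col1a1 at chr11:94813115-94813174, that of Col3a1 at chr1:45405589-45405648 and that of Col17a1 at chr19:47720894-47720953. Exon annotation of that build was not used here, and probes were not checked for cross-hybridisation.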

How the data were processed

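The scans of a mouse array annotated on mm9 had been quantified by Feature Extraction (Agilent, version 10.7.3.1), as the deposited headers state. The deposited scanner files give intensities per spot, raw and after background subtraction with spatial detrending, not normalized between arrays. The authors' deposited value table holds log2 values: quantile normalization of the median signals followed by log2 gave the same numbers to within 1e-06, genes were not centred, and column medians were 6.30 to 6.32. The submitters' processing notes name limma, with settings not given in the sources used here.

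Here each log2 processed signal had its own array's 75th percentile subtracted, without 3671 control features and 147 to 194 outlier spots per array, and spots of a probe were averaged. Of 55681 probes, 36493 well above background on at least 4 arrays were tested, with the brightest probe for a gene, giving 25126 genes. Symbols came from RefSeq (GRCm38.p6) where the accession matched (28146 probes, 64 of the 69 collagen probes). Tests were two-sided and used limma (version 3.58.1, R 4.3.3), and every p-value of a single gene, adjusted or not, is from its fit across all genes. In simulated data for tacrolimus against control (25126 genes), the fit recovered 71% of 100 genes shifted by 1 log2 unit and 92% of 100 shifted by 2, and 10 of its 173 calls were false. The simulated noise was normal and independent between genes and arrays. It held no effect shared by the genes of an array or slide column, so that these rates may not hold for the real arrays. The chains, gene lists, tests and alternatives were chosen with earlier results of these data known. Values on all arrays are given for called chains, the 12 chains with the lowest p, Col1a1, Col1a2, Col3a1 and Col4a1 to Col4a5. In each companion list up to 4 genes, and in each marker list up to 3, with the lowest p are named, and exceptions are stated. Arrays correlated between 0.982 and 0.993.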

Additional observations from a re-analysis of the deposited data

Results flagged for a closer look

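In 70 groups of 4 arrays, 2 values of the 35 tested chains lay far from the other arrays of their group, where chance gives about 1 in 20. Col12a1 was at -2.53 on control replicate 3 against -2.27 to -2.26 on the other controls. Col23a1 was at -3.18 on control replicate 4 against -3.73 to -3.68 on the others.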

How the results depend on the processing

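All 17 chains given by array kept their direction under every setting that tested them (Col17a1 was not tested with the filter on all 8 arrays), except Col4a5, which differed by 0.052 with the adipocyte covariate. The chains called over all genes numbered 2 as reported, 1 with quantile normalization or the median of each array, and 4 with the deposited table or with an intensity trend and robust estimation. They numbered 5 with array weights, and 0 with no filter on dim probes, without the 2 arrays highest in adipocyte markers, or with the adipocyte covariate (limma; 10, 11 and 14 chains higher and 5, 4 and 0 lower at an unadjusted p under 0.05). Col3a1 and Col14a1 were called with normexp, the deposited table, the filter on all 8 arrays, the trend, array weights and the replicate block, and Col1a1 with array weights. Leaving out each array gave 0 to 1 chains and 7 to 56 genes. The genes called numbered 57 as reported, 285 with normexp, 180 with the deposited table, 32 with no filter, 151 with the filter on all 8 arrays, 221 with the trend, 309 with array weights, 8 without the 2 arrays and 0 with the covariate (2186 at an unadjusted p under 0.05). With the replicate block 103 genes and 3 chains were called, and Col1a2 was not (adjusted p = 0.0568). Arrays of the same number share a slide column, and the numbers are not known to pair animals: deviations of same-numbered arrays correlated by 0.156, 0.021, 0.142 and 0.055, and 7 of 8 arrays correlated best with their own number. Over all settings Col17a1 differed by 0.47, with normexp, to 2.54. With the covariate, the median of the fibrillar chains was 1.01, and Cidec, Krt5 and Upk3a turned to -0.048, -0.55 and -1.17, Cidec being part of the covariate. The cause of these changes was not tested. Dim probes such as that of Col17a1 are limited by the signal over background.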
